A study of Homo sapiens with 238 samples.

Results

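The genes described here are the 7 listed protein-coding genes that lie beside the α-globin genes within the first 0.4 Mb of chromosome 16, out of 62696 genes counted: SNRNP25, RHBDF1, MPG, NPRL3, LUC7L, FAM234A and AXIN1. They were chosen by position, their IDs were matched to GENCODE symbols, and their changes were set against those of the chromosome 16 genes that start from 0.4 to 10 Mb, called the region genes below. All 7 genes passed the filter on low counts (mean of 10 or more over the libraries of a fit) in every fit, and the lowest count of any of them in any library was 19, for RHBDF1. The α-globin genes are switched on in erythroid cells by distal enhancers, of which HS-40 is the main one and lies inside an intron of NPRL3. An enhancer can act on more than one promoter within a chromatin domain, and the genes around the α-globin cluster are expressed in most cell types, which is why they serve as neighbours on which an edit of HS-40 can be read. A G-quadruplex (G4) is a folded structure of stacked guanines formed by G-rich DNA.

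The 62 RNA-seq libraries, made from poly(A) RNA, came from 12 lines of K562, an established human erythroleukaemia cell line. In the α series, αMut1 (7 libraries) and αMut2 (4 libraries) were clones grown from single cells whose HS-40 G4 was mutated on every allele. αRes1 and αRes2 (8 libraries each) and αRes3 and αRes4 (4 libraries each) were clones made by editing αMut1 cells again, so that HS-40 carried the G4 of the MYC promoter, and αWT (8 libraries) was the unedited line. In the β series no line was edited on chromosome 16. βMut1 and βMut2 (4 libraries each) carried a mutated G4 in the β-globin enhancer HS2, WT-HS3Δ (4 libraries) had the enhancer HS3 deleted, βMut-HS3Δ (3 libraries) carried both edits, and βWT (4 libraries) was the unedited line. Each edited line was 1 clone, so a difference between lines holds for those clones, and the p-values measure the spread between libraries of a line, which may be technical. In bulk libraries fewer cells with a transcript and less transcript per cell cannot be told apart.

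Between 4270215 and 48671570 counts were assigned per library (median 27764236.5). Levels are given as CPM, the counts in every 1000000 counts of a library after TMM scaling, a trimmed-mean correction of the library size. The erythroid markers GATA1 (193 to 362 CPM) and TFRC (416 to 1371 CPM) were present in all libraries, whereas the B cell marker MS4A1 reached at most 0.0318 CPM and the T cell marker CD2 at most 0.134 CPM. Among the granulocyte and monocyte markers, MPO reached 0.474, CD14 0.560 and ELANE 0.0762 CPM, but LYZ, the lysozyme gene, was at 4.03 to 206 CPM. The region genes themselves moved between lines. Their median log2 change ran from -0.61 to -0.45 in the 6 edited α lines against αWT (172 genes), was 0.06 in βMut1, 0.07 in βMut2, 0.44 in WT-HS3Δ and 0.35 in βMut-HS3Δ against βWT (163 genes), and was 0.51 in αWT against βWT (177 genes). Each gene was therefore given with TMM scaling and again with region scaling, in which the libraries are scaled so that the region genes keep their median level. Libraries with numbers 5 to 8 of 4 α lines, and number 1 of βWT, βMut1, βMut2 and βMut-HS3Δ, stood apart from the others of their line, and the results that they move are given with and without them. A call required a log2 fold change beyond 0.5 in either direction and an adjusted p under 0.05 in edgeR's quasi-likelihood test. Ranges of lines are described as overlapping or not without the share over all genes, which is not given here.

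The 7 genes sit on both sides of the globin genes (hg38, GENCODE 44). On the telomeric side are SNRNP25 (chr16:53828-57669, plus strand), which encodes a protein of the minor spliceosome, RHBDF1 (chr16:58059-76355, minus strand), which encodes the inactive rhomboid protein iRhom1, a cofactor for the trafficking of the protease ADAM17, MPG (chr16:77007-85851, plus strand), a DNA glycosylase of base excision repair, and NPRL3 (chr16:84271-138677, minus strand), a subunit of the GATOR1 complex that restrains mTORC1 when amino acids are scarce. On the other side are LUC7L (chr16:188969-229463, minus strand), which encodes a splicing factor related to yeast Luc7, FAM234A (chr16:234521-272183, plus strand), which encodes a membrane protein, and AXIN1 (chr16:287440-352723, minus strand), a scaffold of the complex that degrades β-catenin. Exons of MPG and NPRL3 overlap by 451 bases on opposite strands, and exons of FAM234A overlap those of RGS11 on the opposite strand by 993 bases. The strand setting of the counting is not given in the sources used here, so reads in those stretches cannot be assigned with certainty. RGS11 averaged at most 0.0431 CPM in any line, far below FAM234A. No exon of SNRNP25, RHBDF1, LUC7L or AXIN1 overlaps that of another gene.

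Promoter windows are shown for the gene pair that moved the same way in αMut2 and αRes3 (RHBDF1 and NPRL3). They are also shown for the pair that moved together in the β lines (SNRNP25 and LUC7L). Each holds 250 bases before and 50 bases after the RefSeq start of the gene (GRCh38.p14), 5′ to 3′ on the gene's strand, with matches to TGANTCA (the core bound by AP-1 and NF-E2), CCNCNCCC (the core of CACCC and GC boxes) or GATAA on either strand in capitals.
RHBDF1 (chr16:72582-72881, minus strand): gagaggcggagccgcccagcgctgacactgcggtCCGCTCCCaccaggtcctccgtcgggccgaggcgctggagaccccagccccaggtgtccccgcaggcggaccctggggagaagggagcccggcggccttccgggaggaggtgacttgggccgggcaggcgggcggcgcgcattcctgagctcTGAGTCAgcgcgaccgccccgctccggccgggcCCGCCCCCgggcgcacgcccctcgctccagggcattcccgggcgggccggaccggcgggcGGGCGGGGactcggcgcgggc
NPRL3 (chr16:138624-138923, minus strand): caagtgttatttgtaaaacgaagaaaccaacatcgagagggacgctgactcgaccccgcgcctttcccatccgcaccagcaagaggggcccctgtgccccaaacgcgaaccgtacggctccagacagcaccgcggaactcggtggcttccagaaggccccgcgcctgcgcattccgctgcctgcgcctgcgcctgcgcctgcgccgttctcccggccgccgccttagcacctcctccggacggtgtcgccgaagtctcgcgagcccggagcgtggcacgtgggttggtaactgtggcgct
SNRNP25 (chr16:53578-53877, plus strand): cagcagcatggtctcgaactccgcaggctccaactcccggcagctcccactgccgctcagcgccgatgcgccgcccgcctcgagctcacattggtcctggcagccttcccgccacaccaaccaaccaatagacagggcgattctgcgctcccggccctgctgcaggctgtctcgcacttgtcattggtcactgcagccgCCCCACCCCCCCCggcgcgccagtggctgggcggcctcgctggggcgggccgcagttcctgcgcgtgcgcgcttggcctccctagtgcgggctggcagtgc
LUC7L (chr16:229400-229699, minus strand): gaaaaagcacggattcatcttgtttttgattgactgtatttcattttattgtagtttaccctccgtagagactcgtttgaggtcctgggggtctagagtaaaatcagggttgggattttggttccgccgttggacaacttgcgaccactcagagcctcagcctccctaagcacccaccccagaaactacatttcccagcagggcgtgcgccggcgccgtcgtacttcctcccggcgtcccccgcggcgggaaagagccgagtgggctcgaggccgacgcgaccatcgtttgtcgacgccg
The RHBDF1 window, of 79.7% G and C, holds 40 CpG dinucleotides, 1 TGANTCA match 64 bases before the start and 3 CCNCNCCC matches. The NPRL3 window (66.3% G and C, 36 CpG) and the LUC7L window (56.3%, 26 CpG) hold none of the 3 motifs, and the SNRNP25 window (70.7%, 28 CpG) holds 3 overlapping CCNCNCCC matches. Over all 35116 promoter windows the median was 14 CpG, 7.71% held TGANTCA, 56.2% held CCNCNCCC and 22.7% held GATAA. The members of each pair thus shared CpG-rich windows but none of these motifs with each other. The windows not shown were CpG-rich as well, with 34 CpG for MPG, 37 for FAM234A and 44 for AXIN1.

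**Figure D1:**
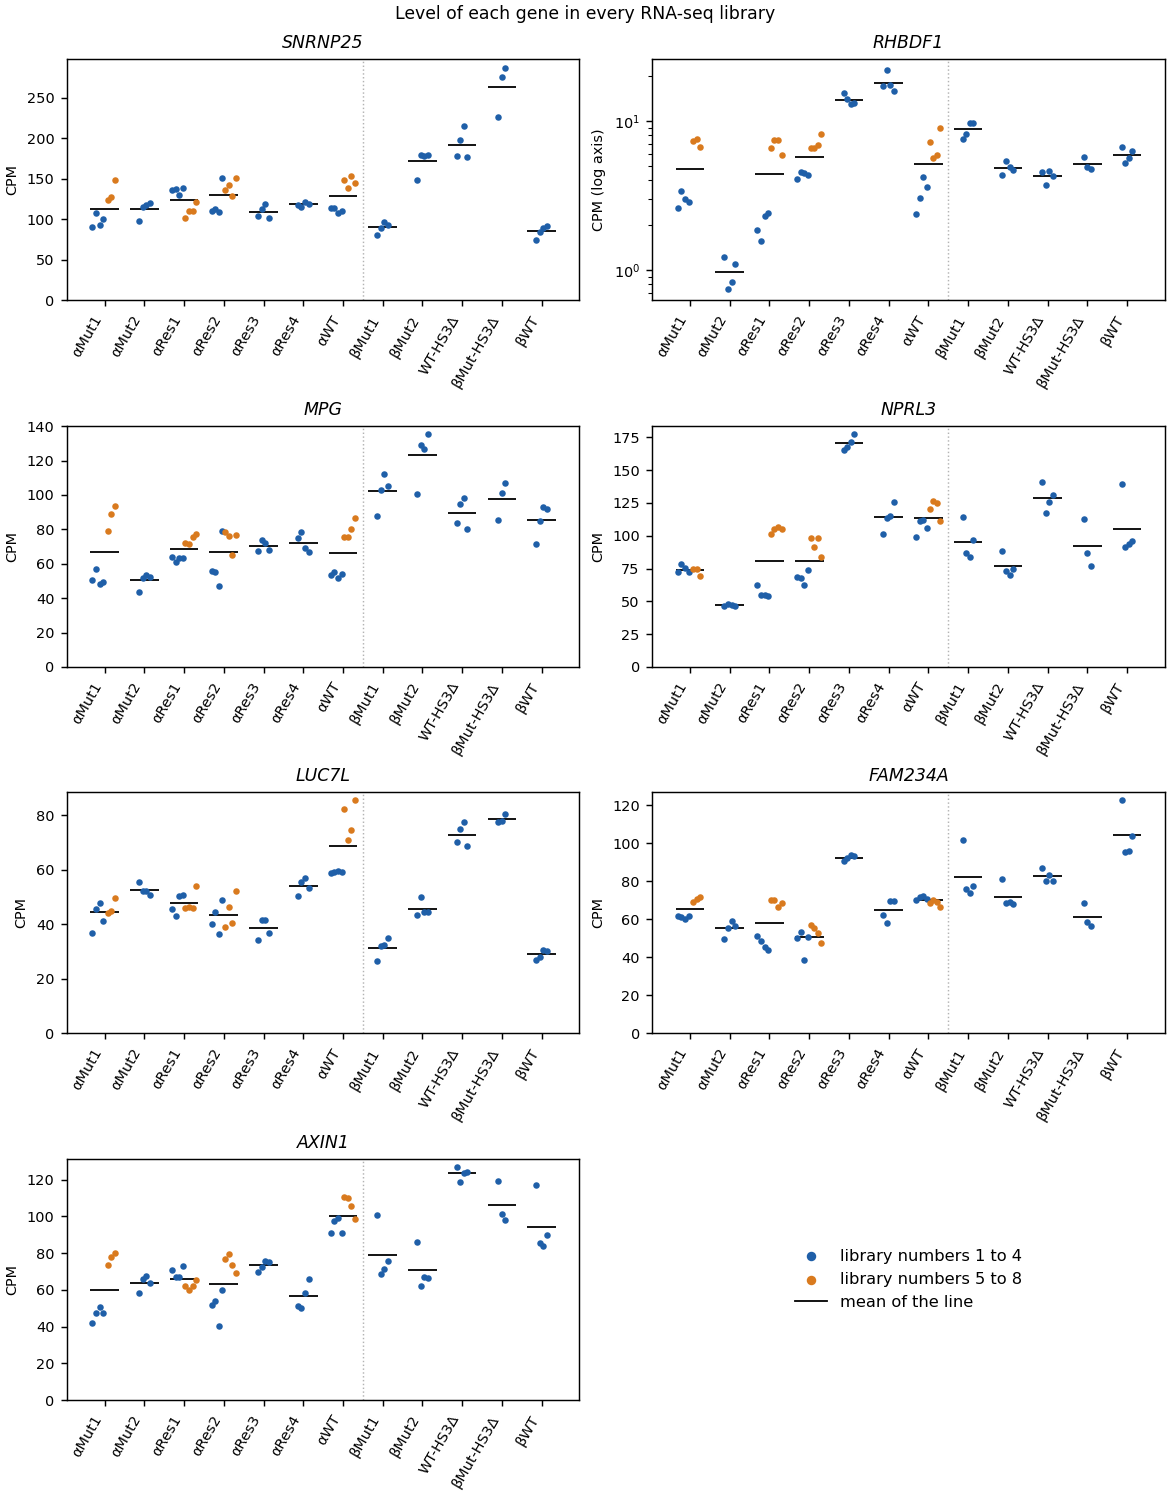
Level of each of the 7 genes (CPM, linear axes from 0, log axis for RHBDF1) in every library, with lines on the horizontal axis, the mean of the line as a bar, and colour for library numbers 1 to 4 and 5 to 8. RHBDF1 was lowest in αMut2 (mean 0.971 CPM) and highest in αRes4 (18.1 CPM), and SNRNP25 and LUC7L were highest in βMut-HS3Δ (262 and 78.7 CPM).

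RHBDF1 was the member with the widest range, from a mean of 0.971 ± 0.223 CPM in αMut2 (SD, n = 4) to 18.1 ± 2.69 CPM in αRes4 (SD, n = 4), a ratio of 18.7. The αMut2 libraries were at 1.22, 0.739, 0.833 and 1.09 CPM, whereas αWT ran from 2.36 through a median of 4.94 to 9.0 CPM. No αMut2 library reached the lowest αWT library. The log2 change was -2.39 ± 0.41 (SE) with TMM scaling (edgeR adjusted p = 2.9e-05) and -1.87 ± 0.34 with region scaling (adjusted p = 3.3e-05). With TMM scaling the change was lower than that of 171 of the 172 region genes. αMut1, with the same edit, ran from 2.60 through a median of 3.37 to 7.57 CPM and overlapped αWT, with a log2 change of -0.10 ± 0.30 with TMM scaling but 0.45 ± 0.25 with region scaling, neither called. The difference between the αMut clones was itself called, at -2.29 ± 0.41 for αMut2 against αMut1 with TMM scaling (adjusted p = 4.4e-05).

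The αRes clones split for RHBDF1. αRes3 libraries were at 15.4, 14.1, 13 and 13.2 CPM, and αRes4 libraries at 17.1, 22.0, 17.5 and 15.9 CPM, all above the highest αWT library. With TMM scaling the log2 change against αWT was 1.45 ± 0.33 in αRes3 (edgeR adjusted p = 0.00033) and 1.83 ± 0.33 in αRes4 (adjusted p = 1.1e-05). Each of these TMM changes was above that of 168 of the 172 region genes. With region scaling the changes were 1.95 ± 0.29 and 2.40 ± 0.28. αRes1 (1.56 to 7.45 CPM, median 4.17) and αRes2 (4.05 to 8.23 CPM, median 5.53) overlapped αWT. With TMM scaling neither was called (-0.23 ± 0.29 and 0.15 ± 0.29), and with region scaling αRes2 was called at 0.74 ± 0.25 (adjusted p = 0.0088) while αRes1 was not, at 0.26 ± 0.25.

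NPRL3, whose intron holds the edited enhancer, followed RHBDF1 in αMut2 and αRes3. Its libraries were at 46.3, 48.1, 47.0 and 46.2 CPM in αMut2, against 99.0 to 126 CPM (median 112) in αWT, and the groups did not overlap. The log2 change was -1.28 ± 0.15 with TMM scaling (adjusted p = 4.9e-08) and -0.80 ± 0.15 with region scaling (adjusted p = 5.6e-05). In αRes3 the libraries were at 165, 168, 172 and 177 CPM, all above αWT, with log2 changes of 0.59 ± 0.14 with TMM scaling (adjusted p = 0.00058) and 1.05 ± 0.14 with region scaling (adjusted p = 3.6e-08). αMut1 was at 69.1 to 78.7 CPM (median 74.7), below every αWT library. This fall, -0.63 ± 0.12 with TMM scaling (adjusted p = 7.3e-05), stood beside a region median of -0.61, and with region scaling the change was -0.00 ± 0.12, with a 95% interval from -0.24 to 0.24. That value joined 0.15 in library numbers 1 to 4 and -0.27 (adjusted p = 0.0037, not called) in the later numbers, where the TMM change was -0.71 beside a region median of -0.46.

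NPRL3 in αRes4 was at 101, 114, 115 and 126 CPM and overlapped αWT. Its log2 change there was 0.01 ± 0.15 with TMM scaling and 0.54 ± 0.14 with region scaling, where it was called (adjusted p = 0.0014). αRes1 ran from 53.8 through a median of 81.9 to 107 CPM and αRes2 from 62.6 through a median of 78.9 to 98.6 CPM. With TMM scaling αRes1 was called lower (-0.51 ± 0.12) and αRes2, at -0.49 ± 0.12, was just short of the fold threshold. The αRes1 call was lost, at -0.50 to -0.44, without any one of αRes1 libraries 1 to 4 or αWT libraries 5 to 7. With region scaling the changes were -0.05 ± 0.12 and 0.08 ± 0.12, and neither was called over all libraries. The αRes1 value joined library numbers 1 to 4, at -0.56 and called (adjusted p = 1.2e-07), and numbers 5 to 8, at 0.36 (adjusted p = 8.1e-05).

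The α-like globin genes, which HS-40 controls, are set beside these values with the same αWT libraries as reference. HBZ, the embryonic ζ-globin gene, averaged 31.6 CPM in αMut2, 258 in αMut1, 816 in αRes3 and 538 in αRes4, against 235 in αWT. Its log2 change with TMM scaling was -2.89 in αMut2, 0.13 in αMut1, 0.70 in αRes1, 0.88 in αRes2, 1.80 in αRes3 and 1.21 in αRes4, and that of HBA2 was -2.33, -0.03, 0.24, 0.78, 1.40 and 1.01 in the same order. RHBDF1 and NPRL3 were thus lowest in the clone with the lowest HBZ, and NPRL3 was highest in the clone with the highest HBZ, whereas RHBDF1 was highest in αRes4. Over the 7 α lines, Pearson's r of the line means of log2 CPM with HBZ was 0.97 for MPG, 0.92 for RHBDF1, 0.83 for NPRL3, 0.47 for FAM234A, 0.16 for SNRNP25, -0.00 for AXIN1 and -0.39 for LUC7L. Over the 5 β lines it was 0.97 for LUC7L, 0.94 for SNRNP25, 0.56 for AXIN1, 0.12 for NPRL3, 0.07 for MPG, -0.55 for RHBDF1 and -0.81 for FAM234A. These describe few lines that share library sets. MPG, RHBDF1 and NPRL3 had, like HBZ, their lowest mean of the α lines in αMut2. Their r over the α lines may rest largely on that clone, and r without it was not computed.

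MPG, whose start lies 61.7 kb from that of NPRL3, had no TMM call over all libraries and 5 region-scaled calls. It averaged 50.3 ± 4.65 CPM in αMut2 (SD, n = 4), 66.7 ± 19.9 in αMut1 (n = 7), 68.6 ± 6.27 in αRes1 (n = 8), 66.7 ± 12.6 in αRes2 (n = 8), 70.4 ± 3.21 in αRes3 (n = 4) and 72.1 ± 5.26 in αRes4 (n = 4), against 66.5 ± 14.2 in αWT (n = 8). All 6 edited lines overlapped αWT. With TMM scaling the log2 changes ran from -0.40 in αMut2 to 0.13 in αRes4 and none was called. The αMut2 value depended on the αWT libraries, at -0.11 with αWT numbers 1 to 4 and -0.64, called, with numbers 5 to 8, a setting chosen after seeing the data (adjusted p = 1.8e-09), where the region median was -0.62. With region scaling MPG was called higher in αMut1 (0.58), αRes1 (0.52), αRes2 (0.59), αRes3 (0.57) and αRes4 (0.67), and αMut2 was at 0.10 ± 0.10. The αRes1 call was lost without αRes1 library 7 (0.50) or αWT library 3 (0.49).

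SNRNP25 was also near its αWT level with TMM scaling. Its means were 113 CPM in αMut1, 113 in αMut2, 123 in αRes1, 130 in αRes2, 109 in αRes3 and 118 in αRes4, against 129 ± 19.3 CPM in αWT (SD, n = 8), and all 6 edited lines overlapped αWT. The TMM log2 changes ran from -0.23 to 0.02 and none was called. With region scaling they ran from 0.24 to 0.61, and that of αRes2 was called (0.61 ± 0.08, adjusted p = 1.2e-08).

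LUC7L and AXIN1 moved largely with the region genes in the α lines. LUC7L was at 34.3 to 41.7 CPM in αRes3, 36.5 to 52.4 in αRes2, 36.8 to 49.8 in αMut1, 43.1 to 54.2 in αRes1, 51.0 to 55.6 in αMut2 and 50.5 to 57.0 in αRes4, against 59.0 to 85.6 CPM in αWT, and no edited line overlapped αWT. AXIN1 was likewise below the αWT range of 90.8 to 111 CPM in all 6 edited lines, at 40.1 CPM in the lowest library (αRes2) and 79.8 CPM in the highest (αMut1). With TMM scaling LUC7L was called lower in αMut1 (-0.64), αRes1 (-0.53), αRes2 (-0.65) and αRes3 (-0.83), and AXIN1 in αMut1 (-0.75), αMut2 (-0.66), αRes1 (-0.61), αRes2 (-0.66) and αRes4 (-0.82). The LUC7L call in αRes1 was lost without αWT library 5 (-0.49) or 8 (-0.48). With region scaling no change of either gene was called. LUC7L ran from -0.36 in αRes3 to 0.20 in αRes4 and AXIN1 from -0.30 in αRes4 to 0.01 in αRes3. AXIN1 was nonetheless lower at an edgeR adjusted p under 0.05 in αMut1 (-0.19), αMut2 (-0.17), αRes1 (-0.14) and αRes4 (-0.30). LUC7L was so in αRes3 (adjusted p = 0.0023). In αMut1 LUC7L was at 0.20 in library numbers 1 to 4 and -0.30 in the later numbers, each with an adjusted p under 0.05.

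FAM234A was highest in αRes3 among the α lines. Its αRes3 libraries were at 90.6, 92.1, 93.8 and 93.0 CPM, against 66.3 to 72.3 CPM (median 70.2) in αWT, with no overlap. The log2 change was 0.41 ± 0.10 with TMM scaling, below the fold threshold, and 0.86 ± 0.11 with region scaling, where it was called (adjusted p = 9.2e-09). In the other edited lines FAM234A averaged 65.2 CPM in αMut1, 55.2 in αMut2, 58.0 in αRes1, 50.6 in αRes2 and 64.8 in αRes4, with no call under either scaling. αMut2 and αRes2 did not overlap αWT.

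**Figure D2:**
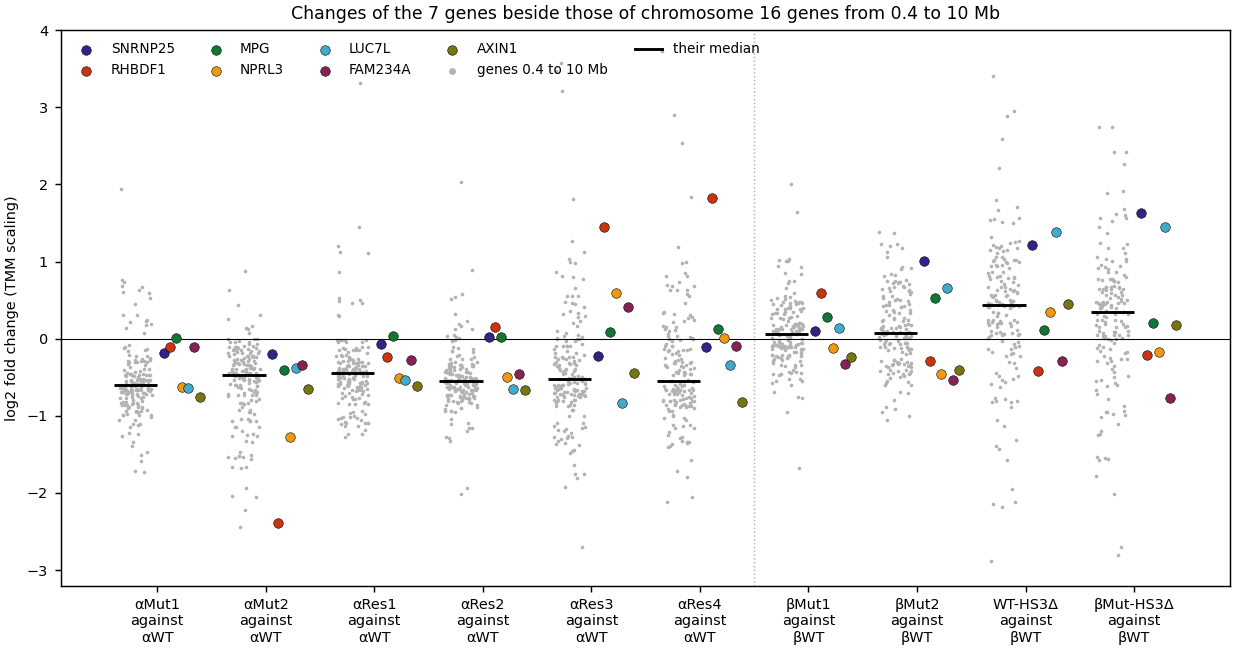
Log2 fold changes with TMM scaling of the 7 genes (coloured) and of the tested region genes (grey, with their median as a bar; 1 point lies outside the axis) in each edited line against the unedited line of its series. RHBDF1 lies below 171 of 172 region genes in αMut2 and above 168 of 172 in αRes3 and αRes4, while LUC7L and AXIN1 differ from the region median by -0.31 to 0.21 in the α comparisons.

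Counted over the 7 genes with TMM scaling, 3 were called in αMut1 (NPRL3, LUC7L and AXIN1), where 22.8% of all genes tested were called, 3 in αMut2 (RHBDF1, NPRL3 and AXIN1; 16.1% of all genes), 3 in αRes1 (NPRL3, LUC7L and AXIN1; 20.4%), 2 in αRes2 (LUC7L and AXIN1; 18.7%), 3 in αRes3 (RHBDF1, NPRL3 and LUC7L; 39% of all genes) and 2 in αRes4 (RHBDF1 and AXIN1; 40.5%). Among the region genes TMM scaling called more, 66.9% in αMut1, 44.2% in αMut2, 44.8% in αRes1, 57.6% in αRes2, 57.6% in αRes3 and 58.7% in αRes4. With region scaling the counts were 1 in αMut1 (57.8% of all genes), 2 in αMut2 (43.8%), 1 in αRes1 (42.7%), 3 in αRes2 (56.3%), 4 in αRes3 (47%) and 3 in αRes4 (52%). By its construction region scaling shifts all genes, and it put their median at 0.41 to 0.58 in these 6 comparisons and at -0.46 to 0.11 in the other 11. Among the region genes themselves, region scaling called 18.6% in αMut1, 19.2% in αMut2, 15.1% in αRes1, 14% in αRes2, 32.6% in αRes3 and 36% in αRes4. The median region-scaled log2 change of the 7 genes was 0.40 in αMut1, 0.10 in αMut2, 0.18 in αRes1, 0.11 in αRes2, 0.57 in αRes3 and 0.43 in αRes4, beside medians of the region genes between -0.06 and 0.02. The comparisons share the αWT libraries.

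Of the 7 other protein-coding non-globin genes within the first 0.4 Mb, RGS11, ARHGDIG and PDIA2 were below the filter in the α series, and the 4 tested were POLR3K (a subunit of RNA polymerase III), MRPL28 (a mitochondrial ribosomal protein), PGAP6 and NME4 (a mitochondrial nucleoside diphosphate kinase). With region scaling none of the 4 was called in αMut1, αMut2, αRes1 or αRes4, POLR3K was called in αRes2 (0.52) and PGAP6 in αRes3 (0.58). With TMM scaling NME4 was called lower in αMut2 (-0.51) and αRes4 (-0.89) and MRPL28 in αRes4 (-0.72). In the β series, where ARHGDIG was tested as well, POLR3K, MRPL28 and NME4 were called higher with TMM scaling in WT-HS3Δ (0.79, 0.84 and 0.63) and βMut-HS3Δ (1.06, 0.94 and 0.66) against βWT. Of the 4 globin genes tested, 4 were called lower in αMut2 and 3 higher in each of αRes3 and αRes4 under the same scaling. In αRes2, likewise against αWT, 3 were called higher and 1 lower, although neither RHBDF1 nor NPRL3 was called higher there. In αRes1, 1 globin gene was called higher and 1 lower, and in αMut1, 1 was called lower and none higher. By the GENCODE gene bounds, which differ from the RefSeq starts of the promoter windows for RHBDF1 and MPG, the start of RHBDF1 lies 62.3 kb from that of NPRL3 and that of SNRNP25 lies 84.8 kb away. In αMut2 the fall was -1.87 for RHBDF1, while MPG, which starts 61.7 kb away, was at 0.10 ± 0.10 and SNRNP25 at 0.30 ± 0.09.

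**Figure D3:**
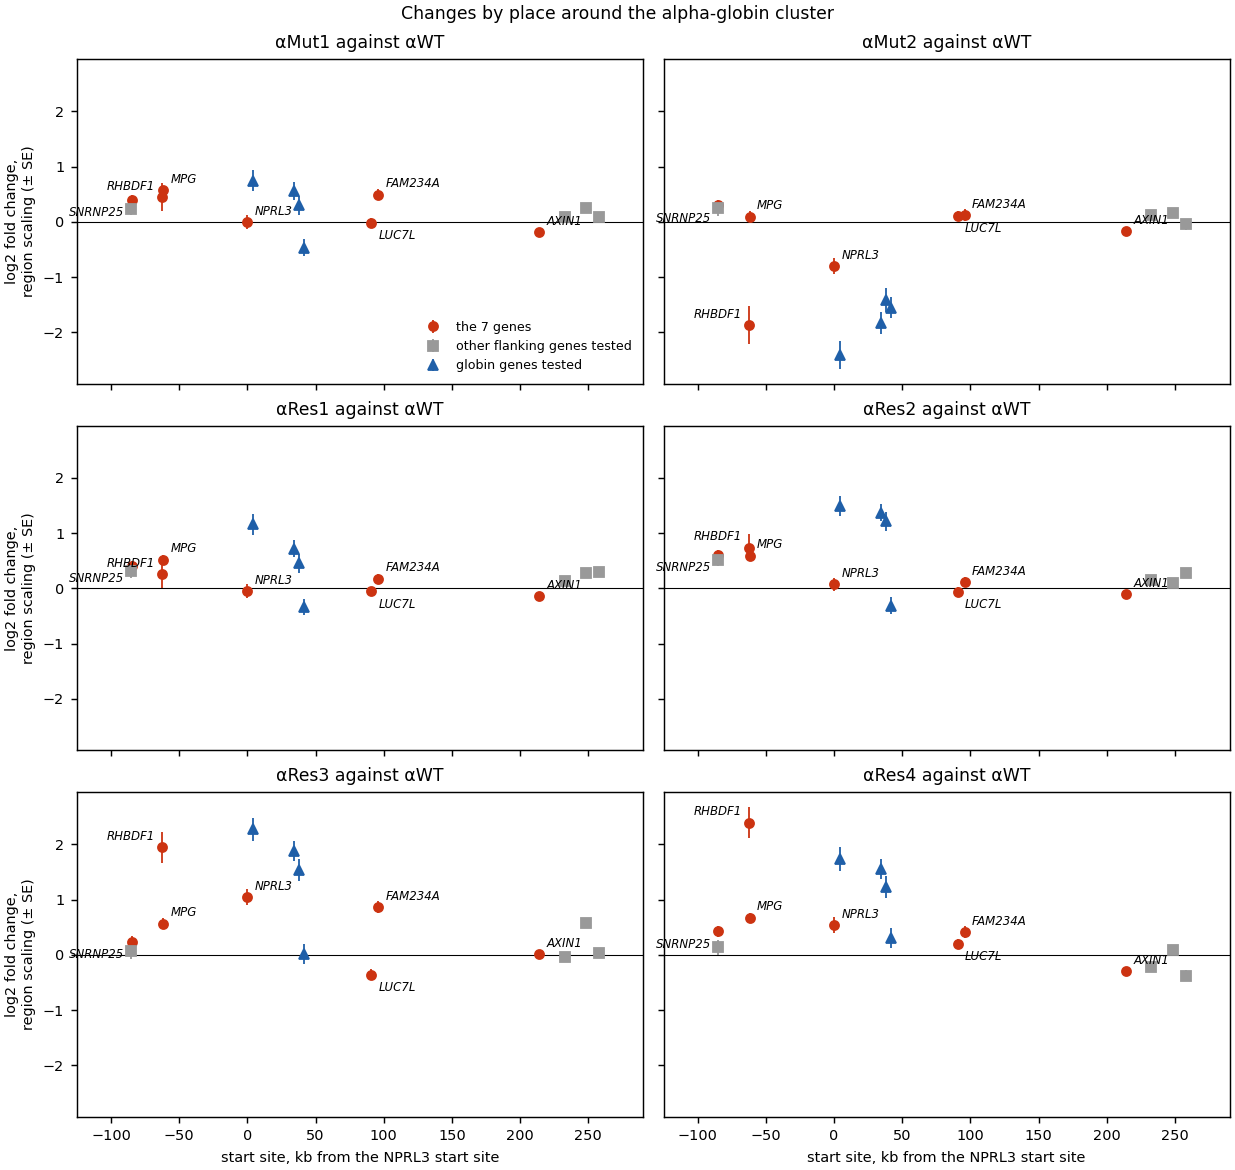
Log2 fold change with region scaling (± SE) of the 7 genes (circles), other flanking genes (squares) and globin genes (triangles) against the distance of their start from that of NPRL3 in kb, for each edited α line against αWT. In αMut2 the 4 globin genes, NPRL3 and RHBDF1 lie below 0, as does AXIN1 (-0.17). SNRNP25, MPG, LUC7L and FAM234A lie above 0, at up to 0.30.

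Set against αMut1, the line they were edited from, αRes3 and αRes4 had more RHBDF1 and NPRL3. αRes3 gave log2 changes of 1.55 ± 0.35 for RHBDF1 (adjusted p = 0.00052), 1.22 ± 0.15 for NPRL3 (adjusted p = 1.2e-08) and 0.51 ± 0.10 for FAM234A with TMM scaling, and 1.5, 1.05 and 0.37 with region scaling, where FAM234A was not called. The TMM call of FAM234A was lost, at 0.49 to 0.50, without any one of αMut1 libraries 1 to 4. αRes4 gave 1.93 ± 0.34 for RHBDF1 (adjusted p = 1.5e-05) and 0.64 ± 0.15 for NPRL3 (adjusted p = 0.00043) with TMM scaling, and 1.94 and 0.54 with region scaling, where NPRL3 fell short, at 0.48 to 0.49, without αMut1 library 5, 6 or 7. Neither αRes3 nor αRes4 libraries overlapped αMut1 libraries for these genes. The counts called were 3 in αRes3 (20.6% of all genes with TMM scaling) and 2 in αRes4 (32.5%), or 2 (20.8%) and 2 (32%) with region scaling.

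αRes1 and αRes2 gave no call against αMut1 for any of the 7 genes under either scaling, where 2.96% (αRes1) and 8.96% (αRes2) of all genes were called with TMM scaling and 4.8% and 8.53% with region scaling. At an unadjusted p below 0.05 with TMM scaling, 0 of the 7 genes passed in αRes1 and 2 in αRes2, and DESeq2 called 0 and 0. The change with the smallest adjusted p was that of FAM234A in αRes2, -0.35 ± 0.09 (adjusted p = 0.0029, under the fold threshold). For αMut2 against αMut1, 2 genes were called with each scaling, RHBDF1 and NPRL3 (-0.65 ± 0.15 with TMM scaling, adjusted p = 0.0011), where 21.9% of all genes were called with TMM scaling and 21.2% with region scaling. αMut2 libraries of RHBDF1, NPRL3, LUC7L and FAM234A did not overlap αMut1 libraries.

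αMut1, αRes1, αRes2 and αWT each had a second set of libraries, numbered from 5 upwards, and these did not match the first 4. The labels give no date or run for the sets. RHBDF1 averaged 7.18 CPM in numbers 5 to 7 and 2.96 CPM in numbers 1 to 4 of αMut1, 6.84 and 2.04 CPM in numbers 5 to 8 and 1 to 4 of αRes1, 7.07 and 4.36 CPM in those of αRes2, and 6.95 and 3.31 CPM in those of αWT. RHBDF1 was thus higher in the later numbers of all 4 lines, edited or not. NPRL3 averaged 104 CPM in numbers 5 to 8 and 56.6 CPM in numbers 1 to 4 of αRes1, and 93.0 and 68.2 CPM in those of αRes2, but 72.9 and 74.6 CPM in αMut1 and 121 and 107 CPM in αWT. FAM234A behaved in the same way in αRes1, with 68.8 and 47.2 CPM. In 16 libraries, numbers 5 to 8 of αRes1 and αRes2 and all of αRes3 and αRes4, reads were counted for pseudoautosomal genes, whereas the other 46 libraries had almost none. The genome file used for each library is not given in the sources used here.

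**Figure D4:**
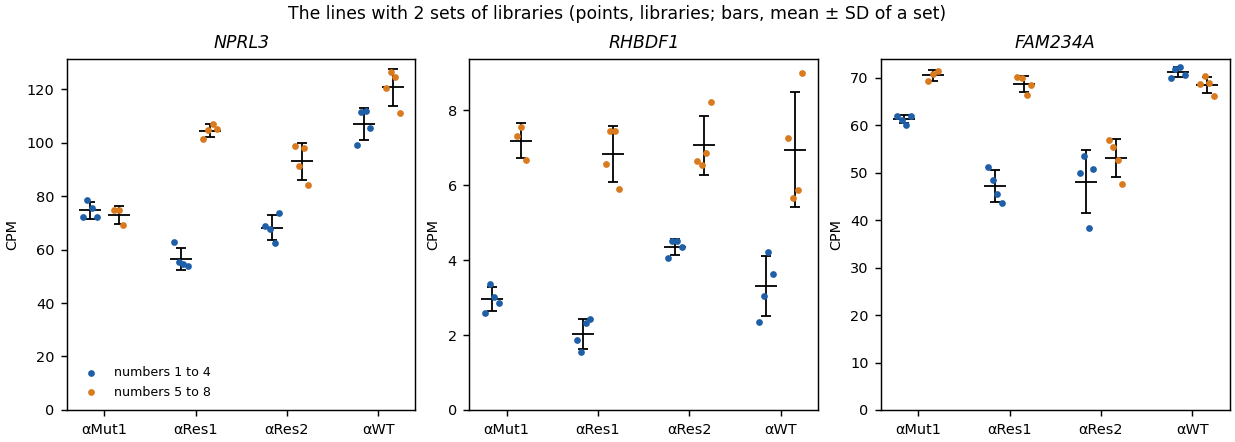
CPM of NPRL3, RHBDF1 and FAM234A in the 4 lines with 2 sets of libraries, with numbers 1 to 4 and 5 to 8 as separate points and the mean ± SD of each set. NPRL3 differs between the sets in αRes1 (104 CPM in numbers 5 to 8 and 56.6 CPM in numbers 1 to 4) but not in αMut1 (72.9 and 74.6 CPM), and RHBDF1 is higher in numbers 5 to 8 of every line shown.

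Of 70 gene results that both sets could give, 11 had opposite directions with an adjusted p under 0.05 in each set, 9 of them in αRes1. For NPRL3 in αRes1 against αMut1, numbers 1 to 4 gave a log2 change of -0.71 with region scaling and numbers 5 to 8 gave 0.63, and both were called. Over all libraries the same change was -0.05 ± 0.12. With TMM scaling in that comparison AXIN1 was at 0.54 (called) in numbers 1 to 4 and -0.30 in numbers 5 to 8, and SNRNP25 at 0.44 and -0.26. For αRes1 against αWT with region scaling, FAM234A was at -0.24 in numbers 1 to 4 and 0.57 (called) in numbers 5 to 8. The values of αRes1 over all libraries are thus averages over sets that differ for these genes.

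RHBDF1 in αMut2 against αWT was -1.79 with TMM scaling when αWT was held to numbers 1 to 4 and -2.82 when it was held to numbers 5 to 8, a choice made after seeing the data. The same pair of values was 2.07 and 1.01 for RHBDF1 in αRes3, 2.45 and 1.40 for RHBDF1 in αRes4, -1.21 and -1.35 for NPRL3 in αMut2, and 0.68 and 0.51 for NPRL3 in αRes3. All of these were called with either αWT set. No αWT or αMut1 library had more than 1 count for pseudoautosomal genes, whereas every αRes3 and αRes4 library had at least 5136. In comparisons of αRes3 or αRes4 with αWT or αMut1, the clone and that difference in counting cannot be told apart. The same holds for numbers 5 to 8 of αRes1 and αRes2 against αWT or αMut1. The region-scaled call of NPRL3 in αRes4 was lost with numbers 1 to 4, at 0.47 against αWT and 0.32 against αMut1, and that of NPRL3 in αMut2 against αMut1 with numbers 5 to 7 of αMut1, at -0.46. With numbers 5 to 8 the region-scaled calls of MPG in αRes1 (0.47), αRes2 (0.44) and αRes3 (0.45) and of SNRNP25 in αRes2 (0.47) were lost, as were the TMM calls of NPRL3 in αRes1 (-0.18) and of AXIN1 in αMut1 (-0.45) and αRes2 (-0.50, just short of the fold threshold), all against αWT, and that of FAM234A in αRes3 against αMut1 (0.38). With numbers 1 to 4 the TMM calls of LUC7L in αMut1 (-0.45), αRes1 (-0.34) and αRes2 (-0.45) and of AXIN1 in αRes1 (-0.47) were lost. Calls that only 1 of the sets made included RHBDF1 in αRes1 with numbers 1 to 4 (-0.71 against αWT with TMM scaling). In αRes1 and αRes2, numbers 5 to 8 differed from numbers 1 to 4 in the counting of pseudoautosomal genes. Set and counting cannot be told apart in those lines. Whether the sets differ otherwise in culture, library preparation or processing was not tested.

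In the β series, where chromosome 16 was not edited, SNRNP25 and LUC7L rose in 3 of the 4 edited lines. SNRNP25 was at 226, 275 and 287 CPM in βMut-HS3Δ, 178, 198, 215 and 176 CPM in WT-HS3Δ and 149, 179, 178 and 179 CPM in βMut2, against 74.8, 84.8, 89.8 and 91.6 CPM in βWT. None of these lines overlapped βWT, and βMut1, at 80.7 to 96.6 CPM, did. The TMM log2 changes were 1.63 ± 0.10 in βMut-HS3Δ (adjusted p = 3.6e-11), 1.22 ± 0.09 in WT-HS3Δ (adjusted p = 8.0e-10), 1.01 ± 0.09 in βMut2 (adjusted p = 6.6e-08) and 0.10 ± 0.09 in βMut1. Relative to the region genes they were 1.29, 0.78, 0.92 and 0.10 in the same order, the first 3 called.

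LUC7L was at 77.6, 77.9 and 80.5 CPM in βMut-HS3Δ, 70.1, 75.1, 77.5 and 68.8 CPM in WT-HS3Δ and 43.6, 50.1, 44.4 and 44.4 CPM in βMut2, against 27, 28.1, 30.7 and 30.1 CPM in βWT, with no overlap. βMut1, at 26.5 to 34.9 CPM, overlapped βWT. The TMM log2 changes were 1.45 ± 0.09 in βMut-HS3Δ (adjusted p = 2.7e-11), 1.38 ± 0.08 in WT-HS3Δ (adjusted p = 2.0e-11), 0.66 ± 0.08 in βMut2 (adjusted p = 2.6e-06) and 0.14 ± 0.08 in βMut1, and with region scaling 1.11, 0.94, 0.57 and 0.14. HBZ averaged 525 CPM in βMut-HS3Δ, 366 in WT-HS3Δ, 220 in βMut2 and 173 in βMut1, against 119 in βWT. The order of the β line means was thus the same for HBZ, SNRNP25 and LUC7L. For SNRNP25, however, WT-HS3Δ and βMut2 overlapped. Over the β lines, Pearson's r with HBA2 and HBA1 was 0.94 and 0.93 for SNRNP25 and 0.99 and 0.97 for LUC7L. With HBQ1 it was -0.003 for SNRNP25 and -0.21 for LUC7L.

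FAM234A fell in the same 3 lines. It was at 68.4, 58.8 and 56.6 CPM in βMut-HS3Δ, 87.2, 79.9, 83.1 and 80.4 CPM in WT-HS3Δ and 80.9, 68.4, 69.3 and 68.0 CPM in βMut2, against 123, 95.6, 96.1 and 104 CPM in βWT, with no overlap. With TMM scaling it was called in βMut-HS3Δ (-0.76 ± 0.11, adjusted p = 9.5e-06) and βMut2 (-0.54 ± 0.10), and WT-HS3Δ was at -0.29 ± 0.10. With region scaling all 3 were called, at -1.09 in βMut-HS3Δ, -0.71 in WT-HS3Δ and -0.61 in βMut2. βMut1 was at -0.32 and was not called.

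RHBDF1 was the one gene called in βMut1, where its libraries were at 7.63, 8.14, 9.67 and 9.71 CPM, against 6.72, 5.24, 5.61 and 6.25 CPM in βWT, with no overlap. The log2 change was 0.59 ± 0.11 with TMM scaling (adjusted p = 0.00071) and 0.60 ± 0.11 with region scaling (adjusted p = 0.00026). In WT-HS3Δ it was at 3.74 to 4.60 CPM, below every βWT library, with changes of -0.42 ± 0.12 with TMM scaling and -0.85 ± 0.11 with region scaling, only the second of which was called. In βMut-HS3Δ (4.76 to 5.71 CPM) the region-scaled change of -0.53 ± 0.12 was called and the TMM change of -0.20 ± 0.13 was not, and without βMut-HS3Δ library 3 the first fell short as well, at -0.50. The rise of RHBDF1 in βMut1 was smaller than the change in αRes3 or αRes4, but the difference between the series was not tested.

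NPRL3 and MPG were each called under 1 scaling in βMut2, and the NPRL3 change in βMut-HS3Δ against βWT with region scaling, -0.50 ± 0.13, was just short of the fold threshold. NPRL3 was at 88.0, 73.5, 70.5 and 74.5 CPM in βMut2, against 140, 91.1, 93.7 and 95.9 CPM in βWT, and was called with region scaling only (-0.52 ± 0.12, adjusted p = 0.0013; -0.45 ± 0.14 with TMM scaling). MPG was at 101, 129, 126 and 136 CPM in βMut2, against 71.7, 85.0, 92.8 and 91.6 CPM in βWT, and was called with TMM scaling only (0.53 ± 0.11, adjusted p = 0.00049; 0.44 ± 0.12 with region scaling). AXIN1 was not called in any β comparison under either scaling, although its WT-HS3Δ libraries (119 to 127 CPM) lay above every βWT library (83.8 to 117 CPM), with a TMM change of 0.44 ± 0.13.

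With TMM scaling 1 of the 7 genes was called in βMut1 (20.3% of all genes tested), 4 in βMut2 (28.7%), 2 in WT-HS3Δ (50.2%) and 3 in βMut-HS3Δ (48.1%). With region scaling the counts were 1 (19.7%), 4 (29.1%), 4 (56.2%) and 4 (50.2%), and among the region genes 17.8%, 29.4%, 47.9% and 44.8% were called. In WT-HS3Δ and βMut-HS3Δ the TMM counts of the 7 genes were thus no larger a share than over all genes. For βMut-HS3Δ against WT-HS3Δ, 1 gene was called with each scaling, NPRL3 with TMM scaling (-0.52 ± 0.16, where 16.3% of all genes were called) and SNRNP25 with region scaling (0.52 ± 0.12, where 17.8% were called). Both were lost without single libraries, NPRL3 at -0.47 to -0.39 and SNRNP25 at 0.44 to 0.49.

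The first library of βWT, βMut1, βMut2 and βMut-HS3Δ stood apart from the others of its line, whereas that of WT-HS3Δ did not. In βWT it had 140 CPM of NPRL3 against 91.1 to 95.9 CPM in the other 3, in βMut1 it had 102 CPM of FAM234A against 73.8 to 77.3 CPM in the other 3, and in βMut2 it had 86.2 CPM of AXIN1 against 62.3 to 67.0 CPM in the other 3. Leaving out number 1 of every β line, a choice made after seeing the data, kept the SNRNP25 and LUC7L calls in βMut2, WT-HS3Δ and βMut-HS3Δ under both scalings. It added NPRL3 (0.52) and AXIN1 (0.61) to the genes called with TMM scaling in WT-HS3Δ, making 4, and AXIN1 (-0.55) to those called with region scaling in βMut2, making 5. It also added NPRL3 with region scaling in βMut-HS3Δ against βWT (-0.57, where all libraries gave -0.50 ± 0.13, adjusted p = 0.0020) and against WT-HS3Δ (-0.53), and FAM234A with TMM scaling in βMut-HS3Δ against WT-HS3Δ (-0.59). Without library 1 of βWT alone, βMut2 lost the TMM calls of FAM234A (-0.45) and MPG (0.46) and the region-scaled calls of NPRL3 (-0.41) and LUC7L (0.50), which left 2 calls under each scaling. The shares of all genes called in these subsets are not given here.

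The unedited lines differed from each other as well. LUC7L was at 59.0 to 85.6 CPM in αWT, against 27 to 30.7 CPM in βWT, with log2 changes of 1.25 ± 0.12 with TMM scaling (adjusted p = 5.4e-07) and 0.76 ± 0.09 with region scaling. FAM234A was at 66.3 to 72.3 CPM in αWT, against 95.6 to 123 CPM in βWT (-0.58 ± 0.07 with TMM scaling, or -0.49 and not called without βWT library 1, and -1.03 ± 0.10 with region scaling). SNRNP25, at 107 to 153 CPM in αWT against 74.8 to 91.6 CPM in βWT, was called with TMM scaling only (0.60 ± 0.11), and RHBDF1 (-0.72) and MPG (-0.86) with region scaling only. With αWT held to numbers 1 to 4 the SNRNP25 call was lost (0.39) and RHBDF1 (-0.82) and MPG (-0.66) were called with TMM scaling too, and with numbers 5 to 8, a setting chosen after seeing the data, the region-scaled RHBDF1 call was lost (-0.40). These made 3 genes called with TMM scaling, where 48.1% of all genes were called, and 4 with region scaling, where 57.3% of all genes and 45.2% of the region genes were called. The LUC7L, SNRNP25 and FAM234A ranges did not overlap. The line and the series of libraries cannot be told apart here.

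**Figure D5:**
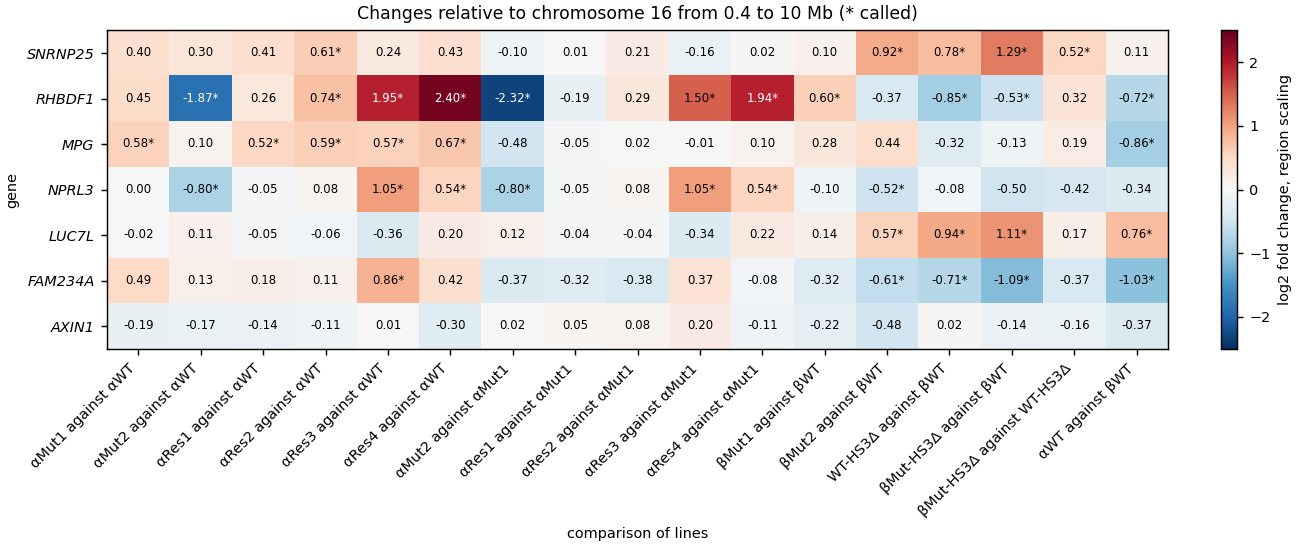
Log2 fold change with region scaling of each of the 7 genes (down the page) in all 17 comparisons of lines (across), with an asterisk for each call. AXIN1 was called in none, and the largest changes were those of RHBDF1, from -2.32 (αMut2 against αMut1) to 2.40 (αRes4 against αWT).

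Per kilobase of exon, SNRNP25 and MPG were the most abundant of the 7 in every line and RHBDF1 the least. In αWT the means were 57.4 CPM per kb for SNRNP25, 44.4 for MPG, 17.7 for NPRL3, 13.3 for AXIN1, 11.4 for FAM234A, 11.2 for LUC7L and 1.04 for RHBDF1. In βWT they were 38.0 for SNRNP25, 57.0 for MPG, 17 for FAM234A, 16.3 for NPRL3, 12.5 for AXIN1, 4.69 for LUC7L and 1.21 for RHBDF1. Across the 12 line means in CPM, the highest level was 3.64 times the lowest for NPRL3 (αRes3 over αMut2), 3.08 times for SNRNP25 and 2.71 times for LUC7L (both βMut-HS3Δ over βWT), 2.44 times for MPG (βMut2 over αMut2), 2.19 times for AXIN1 (WT-HS3Δ over αRes4) and 2.06 times for FAM234A (βWT over αRes2). NPRL3 was ordered αRes3, WT-HS3Δ, αRes4, αWT, βWT, βMut1, βMut-HS3Δ, αRes2, αRes1, βMut2, αMut1 and αMut2 from high to low. Of these neighbours, only αRes3 with WT-HS3Δ and αMut1 with αMut2 had ranges that did not overlap. RHBDF1 was ordered αRes4, αRes3, βMut1, βWT, αRes2, αWT, βMut-HS3Δ, βMut2, αMut1, αRes1, WT-HS3Δ and αMut2, and αRes3 with βMut1, βMut1 with βWT and WT-HS3Δ with αMut2 were separated, as were αRes4 and αRes3.

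Over the same 12 line means of log2 CPM, the members varied most alike in pairs, SNRNP25 with LUC7L (Pearson's r = 0.81) and RHBDF1 with NPRL3 (r = 0.78). Among 18163 genes tested in both series, the gene most like NPRL3 that has a symbol was LZTS3 (r = 0.87), that most like RHBDF1 was ITGB1-DT (r = 0.92) and that most like FAM234A was SRC (r = 0.94). SNRNP25 was most like MRPS12 (r = 0.97), MPG most like ATP5MF (r = 0.98) and LUC7L most like FLAD1 (r = 0.98). AXIN1 was most like FLYWCH1 (r = 0.96), another gene of chromosome 16. With 12 points that share series and library sets, these are descriptions only.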

How the data were processed

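Sample titles gave the line of each of 62 RNA-seq libraries (43 of α lines, 19 of β lines), and 176 samples of other assays were not analysed here. The authors deposited gene-level read counts. To make them they trimmed paired 51-base reads (cutadapt, quality 20), used bwa mem for alignment to hg38 and SAMtools 1.15.1 for sorting, removed duplicates with Picard and ran featureCounts with GENCODE 42. Strand and multimapping settings are not given in the sources used here. GENCODE 44 gave names and positions for 62625 of 62696 IDs. The authors' fold changes were not used.

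Counts were fitted per series with edgeR 4.0.16 (quasi-likelihood test, genes with a mean of at least 10 counts, Benjamini-Hochberg adjustment over all genes tested) in R 4.3.3, with limma 3.58.1, and plotted with matplotlib 3.10.9. Errors of log2 changes are standard errors derived from the F statistic. Region scaling used the median ratio to the geometric mean over tested chromosome 16 genes from 0.4 to 10 Mb. αWT and βWT were fitted together in a fit of their own. Alternatives were DESeq2 1.42.0, other scalings, filters and regions, replicate block, subsets of library numbers and each library left out. The procedure was tested on simulated data. No 2 libraries were duplicates (lowest chi-square per gene 1.80). Same-numbered libraries deviated together (every pair's r above 0.1) only for αRes2 against αMut1 (7 pairs, 0.11 to 0.22). Named genes were all 7 members, the other genes of the first 0.4 Mb, the α-like globins and, per member, the 3 genes of most similar pattern, of which the first is given. HBM, near 0 CPM, was not tested. Members and lists were chosen with earlier results of these data known. The sequences of the edited enhancers are not reported here.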

Additional observations from a re-analysis of the deposited data

Results flagged for a closer look

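In 5 of 77 gene and line groups of 4 to 10 libraries 1 library lay far from the others of its line, a test that chance alone meets in about 1 of 20 groups. SNRNP25 was at 149 CPM in library 1 of βMut2, against 178 to 179 CPM in its other libraries. NPRL3 was at 140 CPM in library 1 of βWT, against 91.1 to 95.9 CPM. LUC7L was at 50.1 CPM in library 2 of βMut2, against 43.6 to 44.4 CPM. FAM234A was at 102 CPM in library 1 of βMut1, against 73.8 to 77.3 CPM, and at 80.9 CPM in library 1 of βMut2, against 68.0 to 69.3 CPM. Library 1 of a β line was the one apart in 4 of these 5 groups.

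The effects of the αMut clones against αWT differed for both RHBDF1 and NPRL3. The effect in αMut2 minus that in αMut1 was -2.29 on the log2 scale for RHBDF1 (edgeR adjusted p = 4.4e-05) and -0.65 for NPRL3 (adjusted p = 0.0011), and no αMut2 library of either gene reached an αMut1 library.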

How the results depend on the processing

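Counts below are of the 7 genes called. The share of all genes called under each of these settings is not given here. The counts therefore describe the settings and are not a result particular to the 7 genes. Under a fold threshold of 0 they rose with TMM scaling to 5 in αMut2, 4 in αRes2 and 5 in αRes3 against αWT, 4 in αMut2 and 1 in αRes2 against αMut1, 3 in βMut1, 7 in βMut2 and 6 in WT-HS3Δ against βWT, and 3 in βMut-HS3Δ against WT-HS3Δ. With region scaling the same change gave 4 in αMut1, 4 in αMut2, 3 in αRes1 and 6 in αRes4 against αWT, 4 in αMut2, 1 in αRes1, 1 in αRes2 and 4 in αRes3 against αMut1, 2 in βMut1 and 7 in βMut2 against βWT, and 4 in βMut-HS3Δ against WT-HS3Δ. For βMut-HS3Δ against WT-HS3Δ with TMM scaling, DESeq2, RLE scaling and no low-count filter gave 2 each, as did numbers 2 to 4 under both scalings, and numbers 2 to 4 gave 4 in WT-HS3Δ against βWT. No low-count filter gave 4 in αRes2 against αWT.

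Numbers 1 to 4 alone gave, against αMut1, 2 in αRes1 and 1 in αRes2 with TMM scaling and 3 in αRes1 and 1 in αRes4 with region scaling, and 3 in αRes1 against αWT with region scaling. Numbers 5 to 8 alone gave 1 in αRes2 against αWT and 1 in αRes1 against αMut1 with TMM scaling, and, with region scaling, 3 in αMut1, 2 in αRes1 and 1 in αRes2 against αWT and 1 in αRes1 against αMut1. Numbers 5 to 8 of the lines that have them gave 5 in αMut2 against αWT with TMM scaling. The change of NPRL3 in αRes1 against αMut1 with region scaling was -0.05 over all libraries and 0.63 in numbers 5 to 8, the opposite direction. Region scaling by TMM over the region, or by its protein-coding genes only (chosen after seeing the data), gave 0 in αRes1, where MPG lay at the threshold (0.49), and a region of 0.4 to 5 Mb gave 2 in αMut1.

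The replicate block gave 2 in αMut1 with region scaling, where RHBDF1 reached 0.53. Under the block NPRL3 in αRes2 reached -0.51 and FAM234A in αRes3 0.50 with TMM scaling, NPRL3 in βMut-HS3Δ reached -0.51 with region scaling, and in αWT against βWT RHBDF1 (-0.85) and MPG (-0.66) gained and SNRNP25 (0.39) lost a TMM call. It changed no other call, and except in αRes2 against αMut1 not every pair of same-numbered libraries deviated together. With each library left out, counts ran from 1 to 3 in αRes1 (TMM) and 0 to 1 (region), 1 to 2 in αMut1 (region), 1 to 2 in αRes4 against αMut1 (region), 2 to 6 in βMut2 under both scalings, 2 to 4 in WT-HS3Δ (TMM), and 0 to 2 in βMut-HS3Δ against WT-HS3Δ under both scalings. RHBDF1 in αMut2, αRes3 and αRes4, NPRL3 in αMut2 and αRes3, and SNRNP25 in βMut2, WT-HS3Δ and βMut-HS3Δ, each against the unedited line, kept their calls with every library left out under both scalings. The causes were not tested. RHBDF1, with the lowest counts, has the widest errors.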
